A study of Mus musculus with 12 samples.

Results

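The collagen genes were examined in peak lists from ATAC-seq, which maps open chromatin by where a transposase can cut and tag DNA. The members were all 44 protein-coding genes of the GENCODE M21 annotation whose symbol is Col, a number, the letter a and a number, out of 21755 protein-coding genes on chromosomes 1 to 19 and X. Of these, 11 encode fibrillar chains, 8 encode chains of basement membranes and 25 encode other collagens, among them 6 beaded filament (type VI), 9 fibril-associated, 3 short-chain, 4 transmembrane and 1 anchoring fibril gene. The rule that picks the genes uses their names and no measured value. The material was primary skeletal muscle fibroblasts of Aromhum mice, which carry the human aromatase gene. The methods place them in the lower abdominal muscle, used at passage 1 after serum starvation. Every cell in the series had this genotype, so no wild-type cells were compared. The 4 treatments were vehicle (ethanol and DMSO), 10 nM estradiol (E2), the same dose of E2 with 100 nM fulvestrant, which blocks and degrades the estrogen receptor, and 100 nM fulvestrant alone, each for 1 hour with 3 libraries. Per the methods, fulvestrant or DMSO was also given 3 hours ahead. Nothing in the labels says that the 3 libraries of a treatment came from separate animals or cultures, so p-values measure only the spread between these libraries, which may be technical.

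Collagens are triple-helical proteins of the extracellular matrix and are a main product of fibroblasts in fibrotic muscle. Fibrillar collagens assemble into cross-banded fibrils, type IV collagens form the sheet of the basement membrane, type VI collagens form beaded filaments around muscle fibers, and fibril-associated collagens sit on the surface of the fibrils. Open chromatin at a promoter or at a distal element is a common feature of genes that a cell transcribes, but a peak by itself does not measure transcription.

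A promoter was called listed in a library when a peak summit lay within 3000 bp of any transcript start of the gene, and a locus was the gene body plus 50000 bp upstream. The value of a promoter is that of its strongest such peak, so values of the same gene in different libraries can come from different starts. Each peak carries the −log10 p of its tag pileup against the local background, which ranks peaks within a list and rises with depth. A listed peak needed only a −log10 p near 2. The lists held 30062 to 110724 peaks, of which 7.35 to 46.4% had a q-value of 0.05 or less. Relative depth, recovered from the peak values as background tags per window, ran from 0.713 to 1.42. The 4 libraries with replicate number 1 listed 22 to 36 peaks on the Y chromosome and the other 8 listed 854 to 1148. Replicate number is therefore given beside the results below. Where a value falls, fewer cells with an open site and less accessibility in each cell cannot be told apart in these bulk libraries.

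Of the 4 genes taken as fibroblast markers, Col1a1, Col1a2 and Col6a3 each had a listed promoter in 9 of 12 libraries and Col3a1 in 4. Among 10 other fibroblast markers, 5 were listed in at least 6 libraries, beside 45.5% of all genes, and 9 reached a q-value of 0.05 or less in at least 1 library, beside 65.3%, with a range of 0 (Tcf21) to 10 libraries (Vim and Fn1). In at least 6 libraries, 0 of 5 immune, 0 of 4 epithelial and 0 of 3 smooth muscle markers were listed. The same count was 1 of 5 endothelial, 1 of 3 adipocyte, 1 of 3 Schwann and 3 of 7 skeletal muscle lineage markers. The q-value count was 0 of 5 immune, 1 of 4 epithelial, 2 of 3 smooth muscle and 1 of 5 endothelial markers. It was 1 of 3 adipocyte, 2 of 3 Schwann and 2 of 7 skeletal muscle lineage markers. Pax7 and Myod1, which define the muscle lineage, were not listed in any library, while Ckm was listed in 8 and Acta1 in 6. The part of cells of other types in the collagen values was not tested.

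The collagen promoters were listed broadly but rarely strongly. In vehicle 26, 27 and 23 of 44 promoters were listed, in E2 32, 17 and 14, in E2 plus fulvestrant 23, 12 and 13, and in fulvestrant 31, 17 and 11. The means were 25.3 ± 2.08 in vehicle, 21 ± 9.64 in E2, 16 ± 6.08 in E2 plus fulvestrant and 19.7 ± 10.3 in fulvestrant (SD, n = 3). The counts of every treatment overlapped those of E2, and replicate 1 was the highest of the 3 libraries in every treatment but vehicle. The share of all protein-coding genes with a listed promoter was also highest in replicate 1 of these treatments, at 58.1, 44.5 and 54% in vehicle, 63.1, 25.5 and 17.3% in E2, 60.7, 20.2 and 22.3% in E2 plus fulvestrant, and 63.3, 29.7 and 19.5% in fulvestrant.

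No collagen promoter was listed in all 12 libraries, against a background of 0.758% of genes. Counted over any start of the gene, those of Col4a1 and Col16a1 were listed in 11 and that of Col4a2 in 10, so 3 of 44 (6.82%) reached 10 libraries where 5.85% of all genes did. In at least 6 libraries the count was 23 of 44 (52.3%) against 45.5%. With a q-value of 0.05 or less in at least 4 libraries it was 9 of 44 (20.5%), below the 40.2% of all genes. The promoters of Col4a5, a chain of specialised basement membranes, and Col10a1, a chain of hypertrophic cartilage, were not listed in any library.

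**Figure D1:**
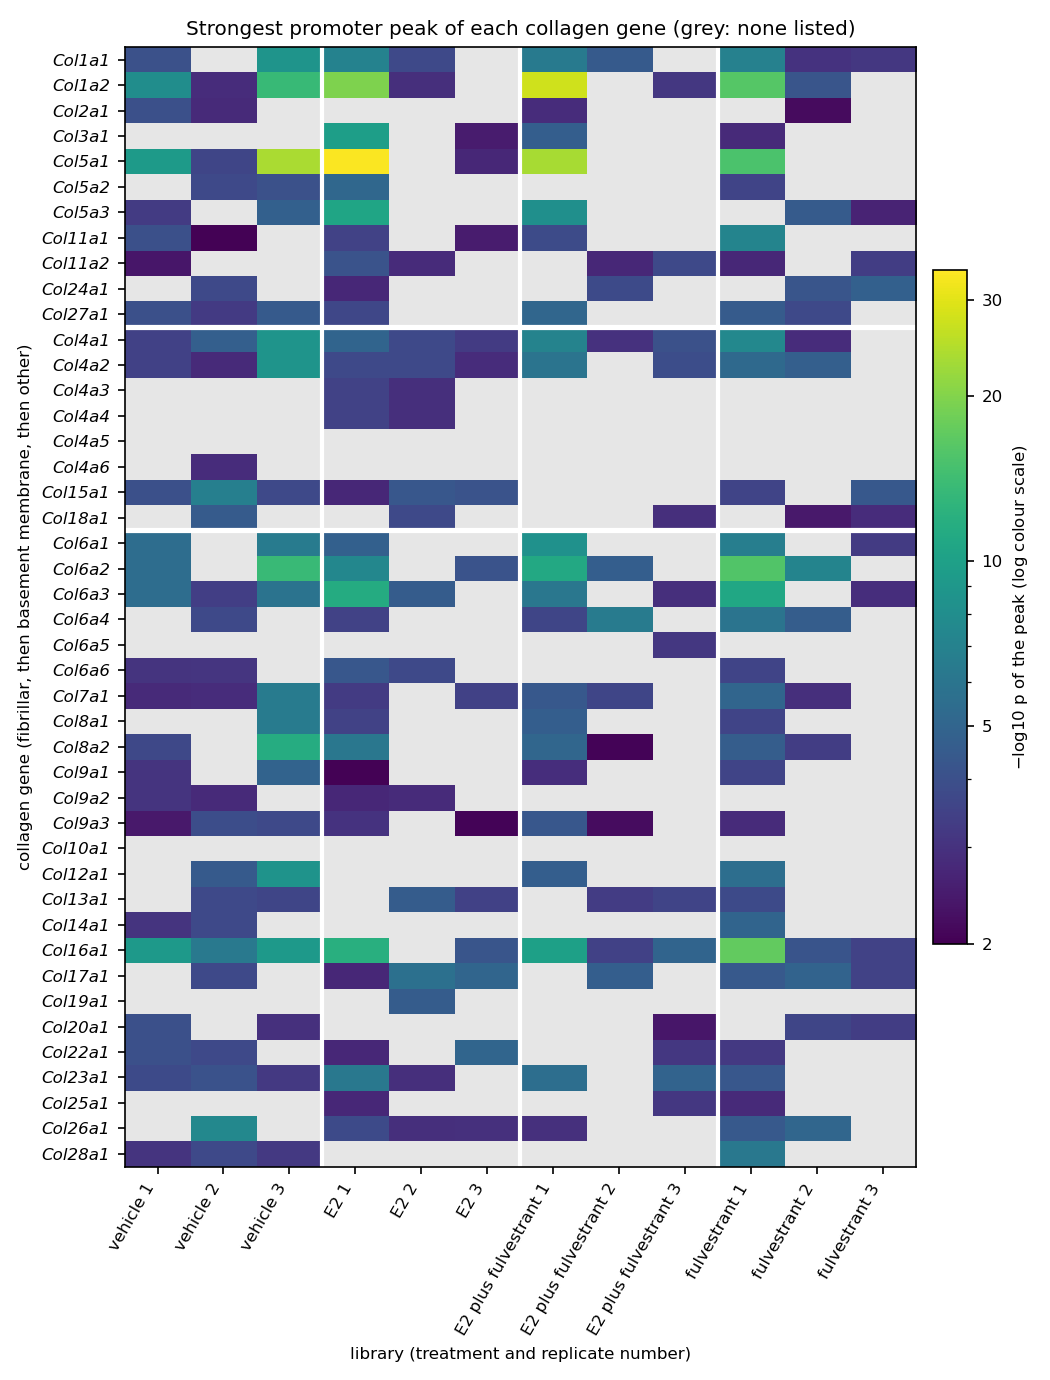
The −log10 p of the strongest promoter peak (log color scale) is shown for the 44 collagen genes in rows and the 12 libraries in columns, with grey where no peak was listed. The strongest cells lie in the rows of Col5a1 and Col1a2, and the fullest columns are those of E2 replicate 1 (32 of 44 listed) and fulvestrant replicate 1 (31).

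Among the fibrillar genes the strongest promoters were those of Col5a1 and Col1a2. Col5a1 encodes a chain of type V collagen, which starts the assembly of type I fibrils, and lies at chr2:27886425-28039514 (plus strand, build GRCm38). Its promoter values (−log10 p) were 9.32, 3.6 and 23.8 in vehicle and 33.3 and 2.75 in E2 replicates 1 and 3. They were 23.5 in E2 plus fulvestrant replicate 1 and 15.3 in fulvestrant replicate 1, and the other 5 lists held none. The value of vehicle replicate 2 came from a separate peak, outside the region of the others (chr2:27885890-27886853). Col1a2 encodes the α2 chain of type I collagen, the most abundant collagen of connective tissue, and lies at chr6:4504814-4541544 (plus strand). Its values were 8.05, 2.85 and 13.5 in vehicle and 19.7 and 2.93 in E2 replicates 1 and 2. They were 27.6 and 3.18 in E2 plus fulvestrant replicates 1 and 3 and 16.1 and 4.21 in fulvestrant replicates 1 and 2. Only 5 libraries listed the strong peak (chr6:4505159-4505975), namely vehicle replicates 1 and 3 and replicate 1 of the other treatments. The values of vehicle replicate 2, E2 replicate 2, E2 plus fulvestrant replicate 3 and fulvestrant replicate 2 came from separate peaks. For both genes replicate 1 held the highest value of the 3 treatments other than vehicle, whose highest value was in replicate 3, and all treatments overlapped.

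Col1a1, which encodes the α1 chain of type I collagen (chr11:94936224-94953042, plus strand), had a weaker peak at the start of the gene. Its promoter values were 4.03 and 8.63 in vehicle replicates 1 and 3 and 6.99 and 3.73 in E2 replicates 1 and 2. They were 6.46 and 4.47 in E2 plus fulvestrant replicates 1 and 2 and 6.92, 3.01 and 3.17 in fulvestrant. These values joined separate peaks. Those of E2 replicate 2 and E2 plus fulvestrant replicate 2 lay 4.149 and 8.575 kb inside the gene. Those of fulvestrant replicates 1 and 3 lay in an upstream region (chr11:94933484-94934027). Col3a1 encodes type III collagen, the partner of type I in pliable tissue, at chr1:45311538-45349706 (plus strand). Its promoter was listed in no vehicle library, at 9.79 and 2.47 in E2 replicates 1 and 3, at 4.68 in E2 plus fulvestrant replicate 1 and at 2.80 in fulvestrant replicate 1. The 4 libraries that listed Col3a1 thus included 3 of the 4 with replicate number 1.

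Col5a3, a further type V chain, was listed at 3.27 and 4.75 in vehicle replicates 1 and 3, 10.6 in E2 replicate 1, 8.18 in E2 plus fulvestrant replicate 1, and 4.53 and 2.64 in fulvestrant replicates 2 and 3, so its highest value was above those of Col1a1 and Col3a1. The other fibrillar genes did not exceed 7.16. Col5a2, the partner chain of Col5a1, was listed at 3.74 and 4.03 in vehicle replicates 2 and 3, 5.17 in E2 replicate 1 and 3.57 in fulvestrant replicate 1. Col11a1, a chain of cartilage fibrils, was listed at 4.0 and 2.04 in vehicle replicates 1 and 2, 3.49 and 2.47 in E2 replicates 1 and 3, 3.81 in E2 plus fulvestrant replicate 1 and 7.16 in fulvestrant replicate 1. Col2a1, the main collagen of cartilage, was listed at 4.0 and 2.79 in vehicle replicates 1 and 2, 2.86 in E2 plus fulvestrant replicate 1 and 2.17 in fulvestrant replicate 2. No fibrillar promoter was listed in 10 libraries, and 7 of 11 were listed in at least 6.

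The basement membrane class divided sharply. Col4a1 (chr8:11198423-11312826, minus strand) and Col4a2 (chr8:11312805-11449287, plus strand) encode the chains of the common type IV network and are transcribed away from each other, with starts so close that 1 peak can be listed for both. The Col4a1 promoter had values of 3.46, 4.70 and 8.66 in vehicle, 4.96, 3.73 and 3.27 in E2, 7.08, 2.99 and 4.02 in E2 plus fulvestrant, and 7.53 and 2.86 in fulvestrant replicates 1 and 2. The Col4a2 promoter had 3.46, 2.80 and 8.66 in vehicle, 3.73, 3.73 and 2.86 in E2, 5.94 and 3.89 in E2 plus fulvestrant replicates 1 and 3, and 5.26 and 4.70 in fulvestrant replicates 1 and 2. These promoters were listed in more libraries than that of any fibrillar gene, yet no value exceeded 8.66. The other type IV genes, which encode the networks of kidney, lung and other specialised membranes, were nearly absent. Col4a3 and Col4a4, again neighbors with a shared start region, were listed only in E2 replicates 1 and 2, at 3.49 and 2.93, Col4a6 only in vehicle replicate 2, at 2.85, and Col4a5 in no library.

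Col15a1 and Col18a1 encode the multiplexin collagens of basement membranes. The Col15a1 promoter (gene at chr4:47208161-47313167, plus strand) was listed at 4.0, 6.80 and 3.73 in vehicle, 2.73, 4.33 and 4.14 in E2, 3.57 and 4.34 in fulvestrant replicates 1 and 3, and in no E2 plus fulvestrant library. The Col18a1 promoter was listed at 4.53 in vehicle replicate 2, 3.73 in E2 replicate 2, 2.94 in E2 plus fulvestrant replicate 3, and 2.44 and 2.87 in fulvestrant replicates 2 and 3, in no library with number 1. For both genes most of these summits lay far from a start, with a median distance of 2572 bp for Col15a1 and 2194 bp for Col18a1.

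Of the 6 type VI genes, 4 were listed in at least 6 libraries. Col6a1, Col6a2 and Col6a3 encode the chains of the common beaded filament. Col6a1 was listed at 5.53 and 6.49 in vehicle replicates 1 and 3, 4.75 in E2 replicate 1, 8.36 in E2 plus fulvestrant replicate 1, and 6.73 and 3.28 in fulvestrant replicates 1 and 3. Col6a2 was listed at 5.53 and 13.6 in vehicle replicates 1 and 3, 7.42 and 4.14 in E2 replicates 1 and 3, 11.1 and 4.66 in E2 plus fulvestrant replicates 1 and 2, and 15.8 and 7.15 in fulvestrant replicates 1 and 2. Col6a3 was listed at 5.49, 3.37 and 5.88 in vehicle, 11.4 and 4.58 in E2 replicates 1 and 2, 6.15 and 2.94 in E2 plus fulvestrant replicates 1 and 3, and 10.8 and 2.91 in fulvestrant replicates 1 and 3. All 3 promoters were listed in every replicate 1 library, and the treatments overlapped in each. Of the genes of the alternative chains that can stand in for Col6a3, Col6a4 was listed in 6 libraries, as many as Col6a1, Col6a6 in 5 and Col6a5 in 1.

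Of the fibril-associated genes, Col16a1 stood out. It was listed at 9.23, 6.26 and 9.14 in vehicle, 12 and 4.24 in E2 replicates 1 and 3, 10.1, 3.47 and 4.99 in E2 plus fulvestrant, and 17.3, 4.19 and 3.48 in fulvestrant. Only 6 libraries listed the peak at the gene start (chr4:130047279-130048160). The values of vehicle replicate 2, E2 plus fulvestrant replicate 3 and fulvestrant replicate 3 lay 9.963, 9.736 and 9.7 kb inside the gene. That of E2 replicate 3 lay 31.538 kb inside it, and that of E2 plus fulvestrant replicate 2 lay 2.014 kb inside it. The 4.19 of fulvestrant replicate 2 lay 7.403 kb inside the gene, and its peak at the gene start had 3.34. Col12a1, which encodes a collagen of tendon and fascia, was listed at 4.49 and 8.53 in vehicle replicates 2 and 3, 4.68 in E2 plus fulvestrant replicate 1, 5.59 in fulvestrant replicate 1 and in no E2 library. Col14a1, its close relative, was listed at 3.07 and 3.74 in vehicle replicates 1 and 2 and at 4.99 in fulvestrant replicate 1. Counted over any start of the gene, Col16a1 was missing from 1 list, against 8 for Col12a1 and 9 for Col14a1.

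The other collagens included genes with little known use in muscle fibroblasts. Col8a1, a short-chain collagen of vessel walls, had a promoter peak at 6.51 in vehicle replicate 3, 3.49 in E2 replicate 1, 4.68 in E2 plus fulvestrant replicate 1 and 3.57 in fulvestrant replicate 1. Col17a1, a transmembrane collagen that anchors epithelial cells, was listed at 3.74 in vehicle replicate 2, 2.73, 5.70 and 5.05 in E2, 4.66 in E2 plus fulvestrant replicate 2 and 4.40, 4.93 and 3.48 in fulvestrant, at a median of 1694 bp from a start. Col28a1 was listed at 3.07, 3.74 and 3.19 in vehicle and 6.20 in fulvestrant replicate 1 and in no library with E2, at a median of 2099 bp from a start.

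The strongest peaks of several collagen loci lay outside the promoter. To compare positions, overlapping or touching peaks of the 12 lists were merged into regions, of which 1596 of 431930 lay in a collagen locus. Most were seen once, with 1243 in exactly 1 library, and 66 of 18689 regions in at least 5 libraries belonged to a collagen locus. Of these 66, 10 lay at a collagen promoter, 19 in introns, 1 in an exon, 21 in upstream sequence and 15 at the promoter of another gene. The last are inside a locus only by its width, for instance the peak at the start of Slc39a7 upstream of Col11a2.

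The distal regions described next were chosen after their values were seen, as those with a high −log10 p that were not at the start of another gene. Col1a1 had a region 7305 bp upstream (chr11:94928691-94929265) with values of 10.2 and 16.5 in vehicle replicates 1 and 3, 31.4 in E2 replicate 1, 27.3 in E2 plus fulvestrant replicate 1, and 27.9 and 4.19 in fulvestrant replicates 1 and 2. It exceeded the Col1a1 promoter peak in each of these 6 libraries. Col5a1 had a region 27678 bp upstream (chr2:27858301-27859069) at 8.54 and 26.9 in vehicle replicates 1 and 3, and at 19.5, 17.2 and 19 in replicate 1 of E2, E2 plus fulvestrant and fulvestrant. In both regions the 3 treated libraries with number 1 exceeded vehicle replicate 1, while vehicle replicate 3 lay above all 3 at Col5a1 and below them at Col1a1.

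Further regions of this kind lay 10635 bp upstream of Col16a1, within an intron of Col8a1 and 6934 bp upstream of Col6a1. The Col16a1 region (chr4:130036745-130037709) had 9.23 and 25.4 in vehicle replicates 1 and 3, 28.7 in E2 replicate 1, 36.3 in E2 plus fulvestrant replicate 1, and 39.4 and 5.55 in fulvestrant replicates 1 and 2. The Col8a1 region (chr16:57649870-57650485, 104657 bp from the nearest start of the gene) had 5.0 and 33.3 in vehicle replicates 1 and 3, 15.7 in E2 replicate 1, 13.1 in E2 plus fulvestrant replicate 1, and 29.4, 10.46 and 3.17 in fulvestrant. A start of another gene, Cmss1, lay nearer to it, at 43194 bp. Col1a2 had weaker regions 46950 and 20589 bp upstream, which reached 12.8 and 10.3.

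**Figure D2:**
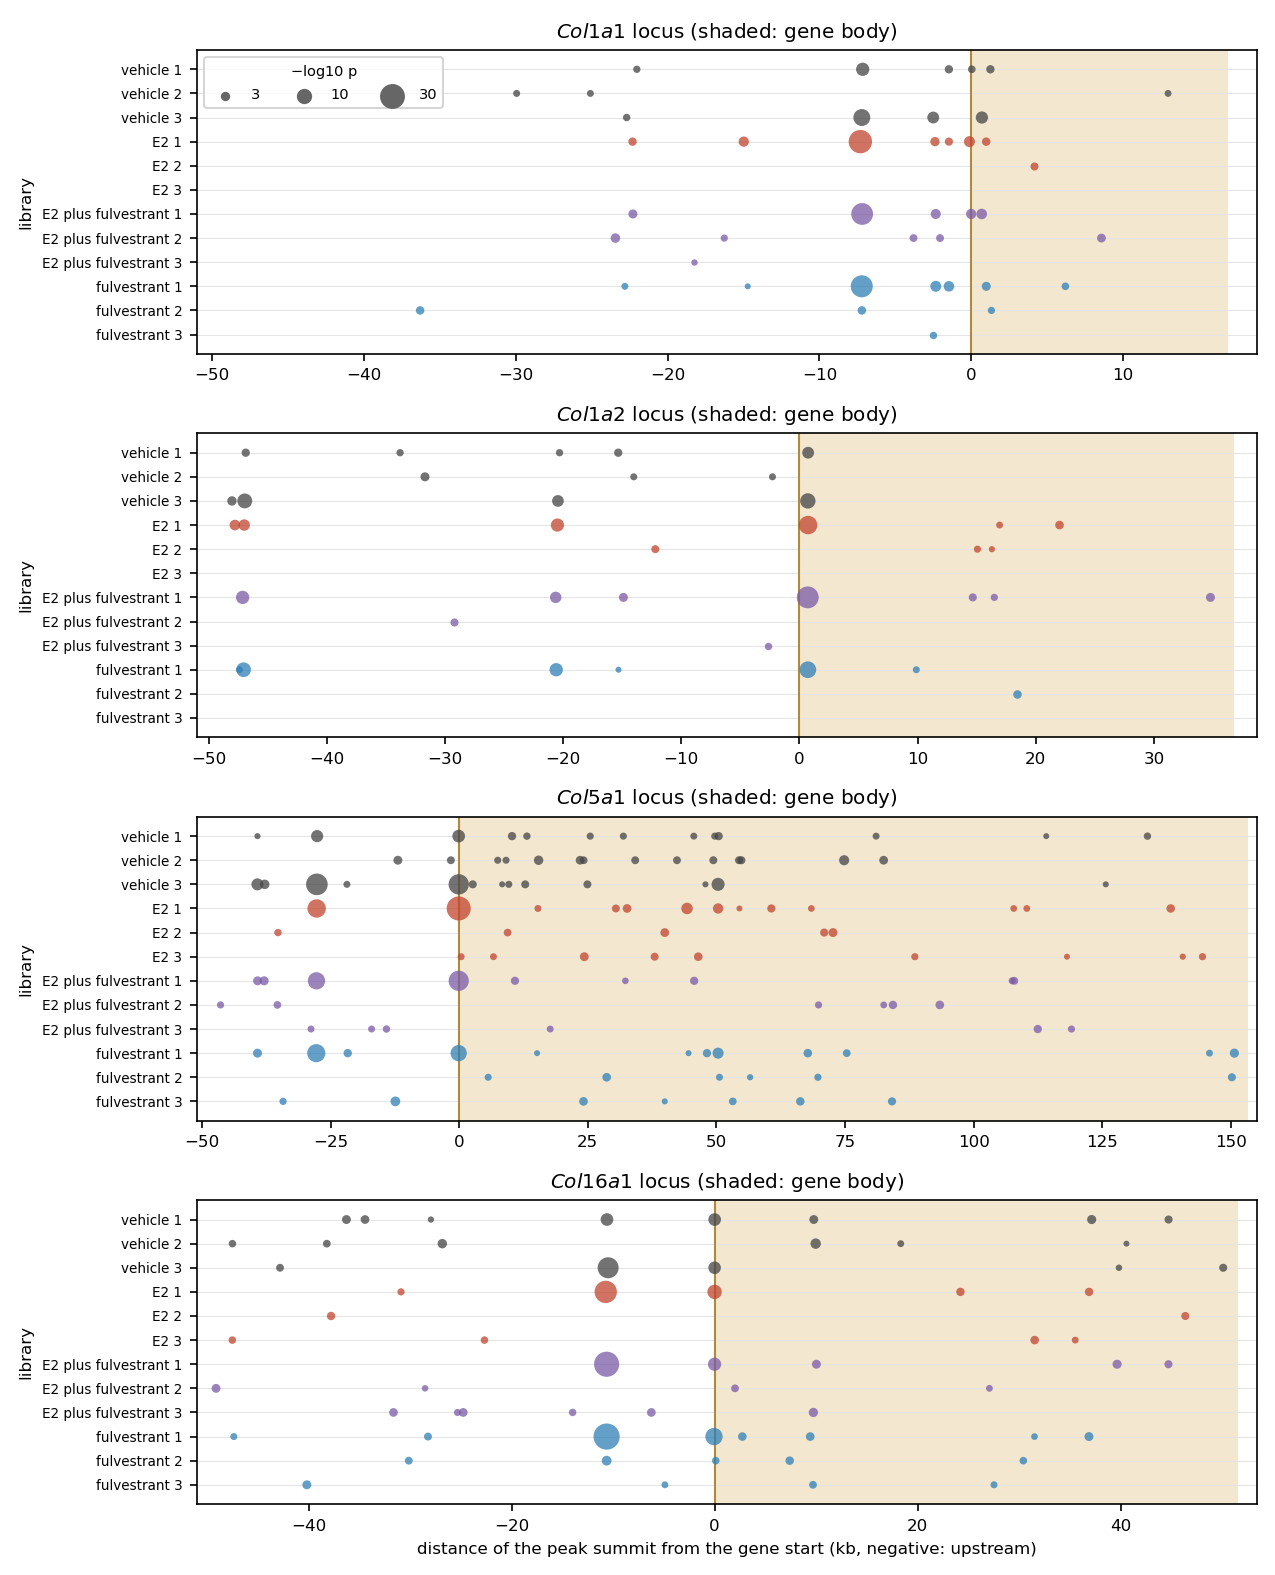
Peak summits of the 12 libraries are plotted by distance from the gene start (kb, negative upstream) in the loci of Col1a1, Col1a2, Col5a1 and Col16a1, with the gene body shaded and the point size set by −log10 p. The column of large points at Col1a1 lies 7305 bp upstream of the start and recurs in replicate 1 of each treatment and in vehicle replicate 3, while points of other libraries are small and seldom line up.

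Sequences at these summits are shown because their peaks were among the strongest of the collagen loci outside the promoters. Each distal sequence is the 151 bases around the summit in GRCm38, read 5′ to 3′ on the strand of the gene, with matches to the motifs described below in capitals. The Col1a1 sequence is chr11:94928844-94928994 (plus strand), that of Col5a1 is chr2:27858672-27858822 (plus strand), that of Col16a1 is chr4:130037130-130037280 (plus strand) and that of Col8a1 is chr16:57649983-57650133 (minus strand). A weaker region of Col6a2, 45435 bp upstream of the start (chr10:76668990-76669140, minus strand), is added because it holds 2 matches to AP-1.
Col1a1 distal region: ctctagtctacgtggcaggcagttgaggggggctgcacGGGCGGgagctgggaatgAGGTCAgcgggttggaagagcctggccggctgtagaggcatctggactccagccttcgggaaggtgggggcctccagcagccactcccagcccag
Col5a1 distal region: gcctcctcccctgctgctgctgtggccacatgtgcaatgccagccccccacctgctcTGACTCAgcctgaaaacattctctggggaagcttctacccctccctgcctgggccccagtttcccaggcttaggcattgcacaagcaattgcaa
Col6a2 upstream region: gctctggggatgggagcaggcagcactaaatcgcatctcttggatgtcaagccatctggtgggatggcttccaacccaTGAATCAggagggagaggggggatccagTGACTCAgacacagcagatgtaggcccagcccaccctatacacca
Col16a1 distal region: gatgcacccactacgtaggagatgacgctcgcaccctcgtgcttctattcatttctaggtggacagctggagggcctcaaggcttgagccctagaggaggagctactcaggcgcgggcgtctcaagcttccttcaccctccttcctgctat
Col8a1 intron region: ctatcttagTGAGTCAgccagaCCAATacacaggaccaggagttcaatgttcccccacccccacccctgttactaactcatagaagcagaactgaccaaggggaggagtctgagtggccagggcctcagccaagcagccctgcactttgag
The capitals mark a GC box and the arm of an estrogen response element in the Col1a1 region, AP-1 in the Col5a1 region and the Col6a2 region, and AP-1 and a CCAAT box in the Col8a1 region. The Col16a1 sequence holds no match in these 151 bases.

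The promoters of 4 fibrillar genes are set beside them, because they include the pair with the strongest peaks of the class and the genes of the type I and type III chains. The Col5a1 sequence (chr2:27886247-27886397, plus strand) is the 151 bases around its strongest summit, and the Col1a1 (chr11:94936074-94936223), Col1a2 (chr6:4504664-4504813) and Col3a1 (chr1:45311388-45311537) sequences are the 150 bases before the annotated start, all on the plus strand.
Col5a1 promoter: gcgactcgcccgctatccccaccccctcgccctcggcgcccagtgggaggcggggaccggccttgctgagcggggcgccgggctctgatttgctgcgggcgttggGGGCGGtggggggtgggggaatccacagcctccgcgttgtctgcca
Col1a1 promoter: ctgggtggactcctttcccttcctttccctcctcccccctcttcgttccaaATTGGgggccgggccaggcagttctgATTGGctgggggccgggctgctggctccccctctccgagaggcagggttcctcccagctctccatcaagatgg
Col1a2 promoter: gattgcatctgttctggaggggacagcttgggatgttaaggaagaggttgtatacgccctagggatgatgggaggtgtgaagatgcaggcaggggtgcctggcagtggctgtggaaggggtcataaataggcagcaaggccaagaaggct
Col3a1 promoter: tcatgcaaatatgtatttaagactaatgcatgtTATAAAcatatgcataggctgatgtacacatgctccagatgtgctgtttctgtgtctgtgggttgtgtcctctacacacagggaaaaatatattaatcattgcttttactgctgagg
The Col5a1 sequence is 74.8% G and C and has a GC box. The Col1a1 sequence is 64.7% G and C and has 2 CCAAT boxes, read here as ATTGG. The Col1a2 sequence is 54.7% G and C and has no match, but its strong peak lay 703 bp inside the outermost start and 24 bp from another annotated start. The printed Col1a2 bases therefore do not cover that peak. The RefSeq promoter window around it (chr6:4505368-4505667) has 2 CCAAT boxes and 2 GC boxes. The Col3a1 sequence is 37.3% G and C and has a TATA box.

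Motifs were searched on both strands, as letters only, within 100 bp of the strongest summit of each of the 66 collagen regions and of all 18689 regions in at least 5 libraries. The estrogen response element, searched as GGTCA and TGACC with any 3 bases between them, matched 0 of 66 collagen regions and 0.0268% of all regions. The single arm AGGTCA, which can overlap the full element, matched 5 of 66 (7.58%) against 8.93%. The AP-1 motif TGANTCA matched 11 of 66 (16.7%) against 6.79%, the CCAAT box 9 (13.6%) against 25.7%, the GC box GGGCGG 18 (27.3%) against 30.5% and the TATA box TATAAA 2 (3.03%) against 3.67%. The collagen regions with AP-1 included the Col5a1, Col8a1 and Col6a2 regions above and the promoter of Col6a1.

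In RefSeq promoter windows of 300 bases in GRCm38, most of them before the start, 38 windows belonged to 35 of the 44 collagen genes and 32851 windows were searched in all. The full estrogen response element was in 0 of 38 and in 0.0700% of all windows, and the arm in 8 (21.1%) against 16.3%. The GC box was in 23 (60.5%) against 35.7%, AP-1 in 1 (2.63%) against 7.81%, the CCAAT box in 13 (34.2%) against 37.4% and the TATA box in 5 (13.2%) against 13.6%. Col1a2, Col5a1, Col5a3, Col6a2, Col16a1 and Col4a2 were among the genes with a GC box, and Col3a1, Col10a1, Col11a2, Col13a1 and Col17a1 were those with a TATA box. These matches describe the letters of the windows and were not read as bound sites.

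Only 3 collagen regions were listed in all 12 libraries, of 669 in the genome, and none was at a promoter. The region 25959 bp upstream of Col19a1 (chr1:24611665-24616200) had −log10 p values of 58.7 to 364, and the 32-base words around its summit occur once in the nuclear genome and once more in the mitochondrial genome. A region in an intron of Col4a6 (chrX:141276428-141276776) had values of 43.3 to 130 and holds a 32-base word that occurs 1823 times in the genome. A region in an intron of Col23a1 (chr11:51455534-51455914), a transmembrane collagen gene, had values of 3.92 to 91.9, and all words around its summit occur once. Of the 66 collagen regions in at least 5 libraries, 58 were single copy by this measure.

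E2 was compared with E2 plus fulvestrant first, which in the study stood for the presence and the loss of E2 signaling. Peaks in each locus were counted, scaled to 10000 listed peaks and fitted on a log2 scale across 18471 genes with a mean of at least 1 peak, of which 42 were collagen genes. Col4a5 and Col5a2 had too few peaks. No collagen gene and no gene of the whole table was called at a Benjamini-Hochberg adjusted p under 0.05 by limma (background 0%), and at an unadjusted p under 0.05 there was 1 of 42 collagen genes beside 5.67% of all genes. The difference was negative, with fewer peaks in E2, for 30 collagen genes and positive for 12, with a median of −0.23 beside −0.14 over all genes tested. Without scaling to list length 20 were negative and 21 positive, with a median of 0.01 beside 0.10, so this split depended on the scaling.

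Col27a1, a minor fibrillar gene, was the gene at an unadjusted p under 0.05. Its locus held 5, 4 and 2 peaks in E2 and 9, 3 and 8 in E2 plus fulvestrant, or 0.634, 0.821 and 0.631 per 10000 listed peaks against 1.48, 0.825 and 2.39. The groups did not overlap on the scaled measure but overlapped in peak numbers. The log2 difference was −0.97 ± 0.47 (SE, n = 3 per group), with a limma adjusted p of 0.852. With peaks limited to a q-value of 0.05 or less it was 0.054, and without E2 plus fulvestrant replicate 3 it was −0.62.

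Col1a1 came next, with 7, 1 and 0 peaks in E2 and 5, 5 and 1 in E2 plus fulvestrant. Its log2 difference was −1.24 ± 0.66 with a limma adjusted p of 0.852, and the groups overlapped. It was −0.65 without E2 replicate 3, −0.82 without E2 plus fulvestrant replicate 2 and −1.95 without E2 replicate 1. Col25a1, a transmembrane collagen gene, had 16, 6 and 3 peaks against 5, 1 and 4 and a difference of 0.87 ± 0.52, with a limma adjusted p of 0.865, which fell to 0.40 without E2 plus fulvestrant replicate 2. Col1a2 had 6, 3 and 0 peaks against 7, 1 and 1, with a difference of −0.43 ± 0.72. Col5a1 had 13, 5 and 9 peaks against 9, 6 and 6, with a difference of 0.03 ± 0.41.

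The scaled locus values of 2 collagen genes did not overlap between E2 and E2 plus fulvestrant, both higher in E2 plus fulvestrant, beside 6.01% of all genes tested in that direction. They were Col27a1 and Col22a1, the latter a collagen of muscle-tendon junctions with 11, 4 and 4 peaks in E2 and 9, 6 and 5 in E2 plus fulvestrant. No collagen gene was wholly higher in E2, where the background was 3.56%. An exact two-sided permutation test of the peak numbers themselves cannot go below 0.10 with 3 against 3 libraries, and its smallest p over the 44 genes was 0.3.

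At promoters, Col15a1 was listed in all 3 E2 libraries and in no E2 plus fulvestrant library, as 0.262% of all protein-coding genes were. No collagen promoter showed the opposite pattern, where the background was 0.23%. The summits of these Col15a1 peaks lay 787, 2871 and 2630 bp from the nearest start in E2 replicates 1, 2 and 3, and the split was gone when summits had to lie within 1000 bp of a start, when q had to be 0.05 or less, and when −log10 p had to be at least 5. Among regions, 1 of 850 collagen regions was listed in every E2 library and no E2 plus fulvestrant library, beside 0.136% of all regions. It lay 22778 bp upstream of Col5a3 (chr9:20837467-20838016) at 4.65, 2.93 and 3.69 in E2, in a stretch of CA repeats, and was also listed in every vehicle library, at 5.85, 6.24 and 3.18, and in fulvestrant replicate 2 at 3.34.

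**Figure D3:**
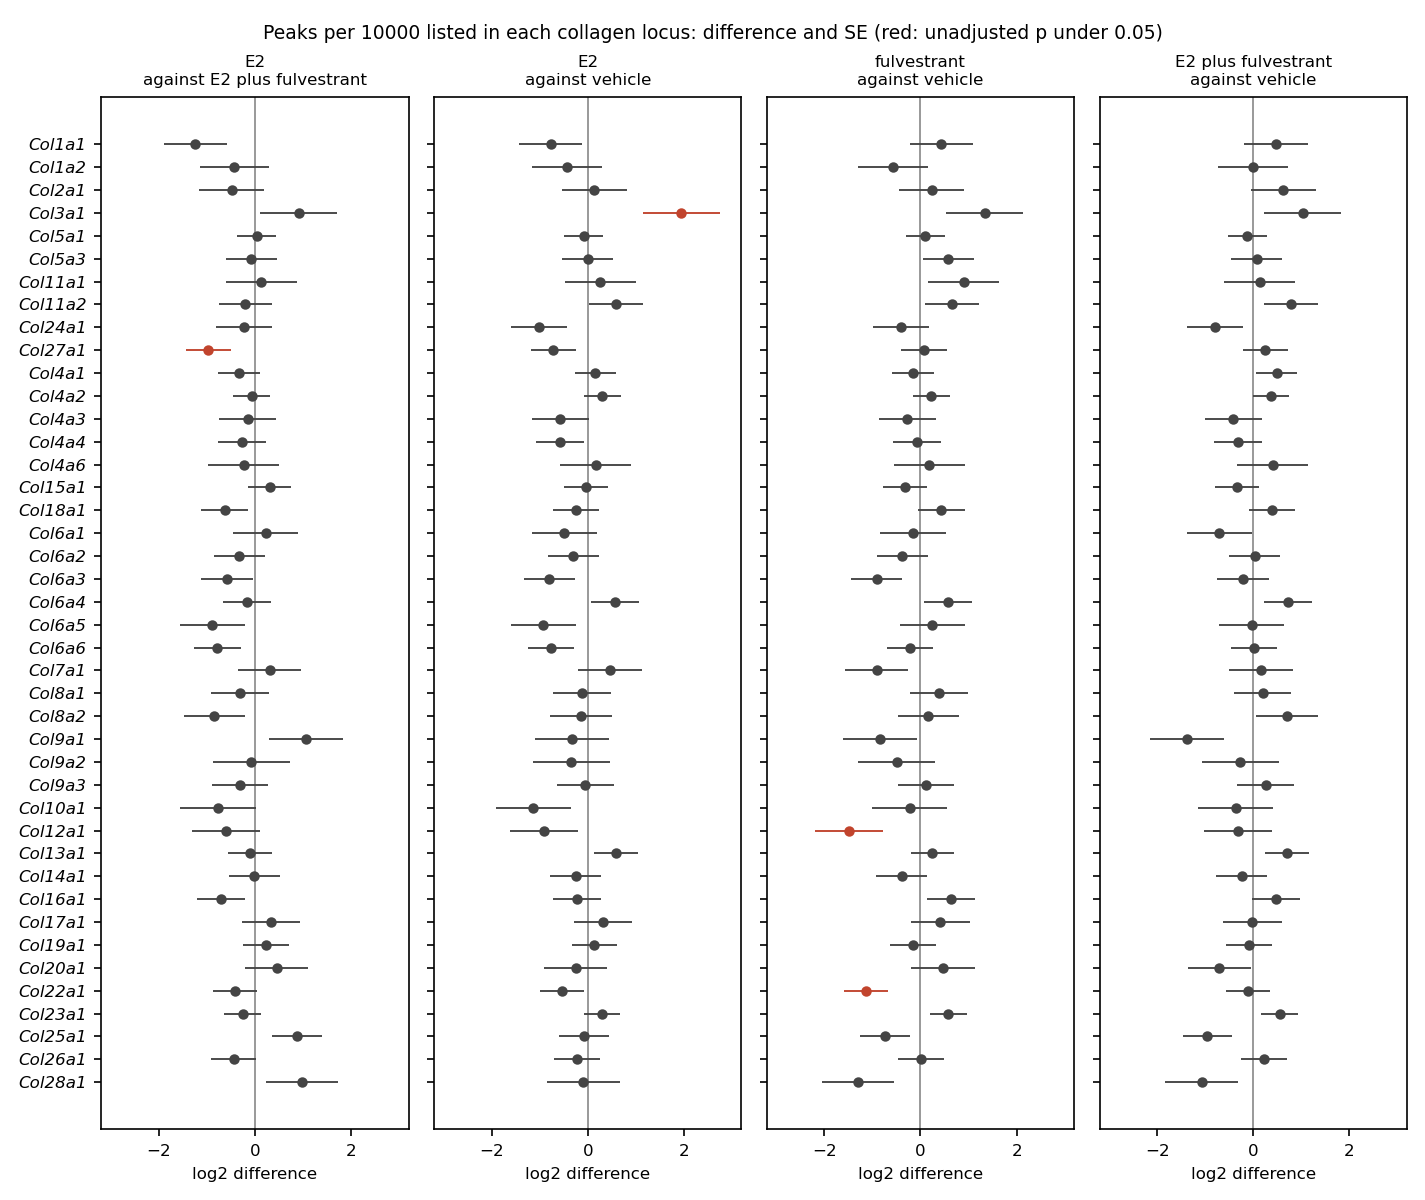
Log2 differences in peaks per 10000 listed peaks (points) with their SE (lines) are drawn for the 42 collagen loci tested in each of the 4 comparisons, in red where the unadjusted p was under 0.05. The red points are Col27a1, Col3a1, Col12a1 and Col22a1, none passed the adjusted threshold, and the members fall on both sides of 0 in every panel.

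E2 was then compared with vehicle. The E2 libraries enter this comparison as well, and the vehicle libraries are shared by the next ones, so the comparisons are not independent. No collagen gene was called by limma (background 0%), and 1 of 42 had an unadjusted p under 0.05 beside 3.05% of all genes. The difference was negative for 29 and positive for 13, with a median of −0.18 beside −0.02, and without scaling 38 and 4, with a median of −0.73 beside −0.56. With peaks of q of 0.05 or less 3 were negative and 22 positive, a count given without its share over all genes. Lists cut at that threshold held 13863, 17934 and 20596 peaks in vehicle and 30611, 3942 and 2949 in E2. A locus without peaks scores higher in a shorter list, so this count was not read as a gain in E2. The gene at an unadjusted p under 0.05 was Col3a1. Its locus held 1, 0 and 0 peaks in vehicle and 5, 0 and 2 in E2. The groups overlapped at 0, and the log2 difference of 1.95 ± 0.80 had a limma adjusted p of 0.996. In E2 plus fulvestrant the same locus held 2, 0 and 0 peaks and in fulvestrant 4, 0 and 0. Col24a1, a minor fibrillar gene, had 6, 19 and 6 peaks in vehicle and 8, 7 and 0 in E2 (−1.02 ± 0.58), and Col6a6 had 13, 12 and 6 and 13, 3 and 1 (−0.77 ± 0.48). At q of 0.05 or less these differences turned to 0.23 and 0.81. Without E2 replicate 3 they were −0.0067 and −0.36, while Col24a1 was at −1.65 without E2 replicate 2 and Col6a6 at −1.29 without E2 replicate 1.

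Scaled locus values of 4 collagen genes were wholly higher in vehicle than in E2, beside 5.12% of all genes tested, and none was wholly higher in E2, beside 2.67%. They were Col4a3, Col6a3, Col27a1 and Col12a1. Col6a3 had 10, 10 and 5 peaks in vehicle and 5, 4 and 1 in E2, with a log2 difference of −0.80 ± 0.54 and a limma adjusted p of 0.996. Col12a1 had 3, 10 and 4 peaks in vehicle and 3, 1 and 1 in E2. At promoters, Col28a1 was listed in all vehicle and no E2 libraries, as 0.579% of genes were, and this split too was gone with summits within 1000 bp, at q of 0.05 or less and at −log10 p of at least 5. No collagen promoter had the opposite pattern (0.152%), and no collagen region was listed in every library of 1 treatment and none of the other (0.0562% of all regions for E2 and 0.0846% for vehicle).

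Between fulvestrant and vehicle no collagen gene was called (background 0%), and 2 of 42 had an unadjusted p under 0.05 beside 4.3% of all genes. Col22a1 had 20, 16 and 6 peaks in vehicle and 10, 2 and 1 in fulvestrant, with a log2 difference of −1.13 ± 0.46 and a limma adjusted p of 0.991. Col12a1 had 3, 10 and 4 peaks in vehicle and 5, 0 and 0 in fulvestrant, with a difference of −1.50 ± 0.71 and the same adjusted p by limma. Col28a1 had 6, 5 and 2 peaks in vehicle and 4, 0 and 0 in fulvestrant, with a difference of −1.30 ± 0.76. For Col22a1 and Col12a1 the groups overlapped on the scaled measure, and only Col6a3 and Col7a1, the anchoring fibril gene, were wholly higher in vehicle, beside 4.04%, with none wholly higher in fulvestrant, beside 4.9%. No collagen promoter was listed in all libraries of 1 and none of the other, beside 0.0598% of genes for fulvestrant and 0.584% for vehicle. Positive differences (22) and negative ones (20) were near balance, with a median of 0.04 beside 0.13 over all genes, while without scaling 2 were positive and 40 negative, with a median of −0.76 beside −0.67. A region in a Col27a1 intron (chr4:63290843-63291609) was listed in vehicle at 3.32, 2.38 and 7.98 and in no fulvestrant or E2 plus fulvestrant library, as 0.0999% of all regions in the fulvestrant comparison were.

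E2 plus fulvestrant against vehicle gave no call (background 0%) and no collagen gene at an unadjusted p under 0.05, beside 4.07% of all genes. The difference was positive for 22 and negative for 20, with a median of 0.02 beside 0.13, and without scaling positive for 2 and negative for 40, with a median of −0.77 beside −0.65. Col25a1 had 15, 25 and 3 peaks in vehicle and 5, 1 and 4 in E2 plus fulvestrant (−0.95 ± 0.52). Col9a1, a cartilage collagen gene, had 2, 5 and 2 against 1, 0 and 0 (−1.39 ± 0.77), and Col13a1, a transmembrane collagen gene, had 7, 7 and 8 against 6, 9 and 6 (0.70 ± 0.46). These were the smallest p of the comparison, with a limma adjusted p of 0.987 for each, and the signs of Col25a1 and Col13a1 turned at q of 0.05 or less (0.58) and without scaling (−0.084). The Col25a1 difference was −0.48 without E2 plus fulvestrant replicate 2 and −1.44 without vehicle replicate 3. That of Col13a1 was 0.36 and 1.115 without vehicle replicates 2 and 3, and 1.06 and 0.41 without E2 plus fulvestrant replicates 1 and 2. Wholly higher in E2 plus fulvestrant were Col4a1 and Col2a1, beside 5.55% of genes, and wholly higher in vehicle were Col9a1 and Col4a4, beside 4.22%. The promoters of Col15a1 and Col28a1 were listed in every vehicle and no E2 plus fulvestrant library, as 0.685% of genes were, and none had the opposite pattern, beside 0.152%. These splits were also gone with summits within 1000 bp, at q of 0.05 or less and at −log10 p of at least 5. Regions of this kind numbered 3 of 1047 in collagen loci, beside 0.121% of all regions, namely those of Col5a3 and Col27a1 above and one in an exon of Col6a2 (chr10:76614269-76614745), at 2.80, 3.78 and 3.88 in vehicle.

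The interaction, which asks whether E2 had another effect without fulvestrant than with it, gave no call by limma (background 0%) and 2 of 42 collagen genes at an unadjusted p under 0.05, beside 3.75% of all genes. They were Col22a1 (−1.55 ± 0.65) and Col12a1 (−2.10 ± 1.00), followed by Col3a1 (2.25 ± 1.13), each with a limma adjusted p of 0.998. The log2 fold enrichment of promoter peaks was fitted over the 165 genes listed in all 12 libraries, which hold no collagen gene, and no gene had an unadjusted p under 0.05 in any contrast. Where 10 libraries were enough, Col4a1, Col4a2 and Col16a1 entered, and their differences between E2 and E2 plus fulvestrant were −0.09 ± 0.36, −0.07 ± 0.48 and −0.02 ± 0.30 with a limma adjusted p of 1.00 for each. The Col16a1 values joined peaks at different starts.

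By class, peaks in the collagen loci were compared as sums over the 39 merged loci, which cover 7.22 Mb because neighbors such as Col4a1 and Col4a2 or Col3a1 and Col5a2 share sequence. All collagen loci held 38.4, 31.4 and 44 peaks per 10000 listed in vehicle, 35.3, 28.7 and 36.9 in E2, 37.3, 35.8 and 40.6 in E2 plus fulvestrant and 35.5, 37.5 and 32.3 in fulvestrant. Every pair of treatments overlapped. The log2 ratio of E2 to E2 plus fulvestrant was −0.17 (−0.08 within replicate number 1 and −0.22 within numbers 2 and 3), beside −0.07 for all protein-coding loci. It was −0.01 over gene bodies without the upstream sequence. The ratio of E2 to vehicle was −0.17, that of fulvestrant to vehicle −0.11 and that of E2 plus fulvestrant to vehicle −0.00. No test was made of a sum over the members.

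By class the ratio of E2 to E2 plus fulvestrant was −0.19 for fibrillar loci, −0.12 for basement membrane loci and −0.18 for the others. Among the sets that were summed, the type VI genes had the lowest, −0.40, with 4.69, 3.90 and 3.15 peaks per 10000 in E2 and 4.92, 4.95 and 5.67 in E2 plus fulvestrant, which did not overlap. Fulvestrant alone, at 4.88, 3.75 and 3.99, was likewise wholly below E2 plus fulvestrant, while vehicle, at 5.56, 4.61 and 5.64, overlapped every treatment, with ratios to vehicle of −0.43 for E2, −0.32 for fulvestrant and −0.02 for E2 plus fulvestrant. These separations depended on the scaling. The peak numbers overlapped, at 37, 19 and 10 in E2, 36, 12 and 12 in fulvestrant, and 30, 18 and 19 in E2 plus fulvestrant. The ratio of E2 to E2 plus fulvestrant was −0.07 within replicate number 1 and −0.59 within numbers 2 and 3. The density of peaks relative to the genome had a median over libraries of 1.36 for collagen loci, beside 1.23 for all protein-coding loci. It was 1.73 in type VI loci, 1.35 in fibrillar loci, 1.24 in basement membrane loci and 1.02 in the type IV loci alone.

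**Figure D4:**
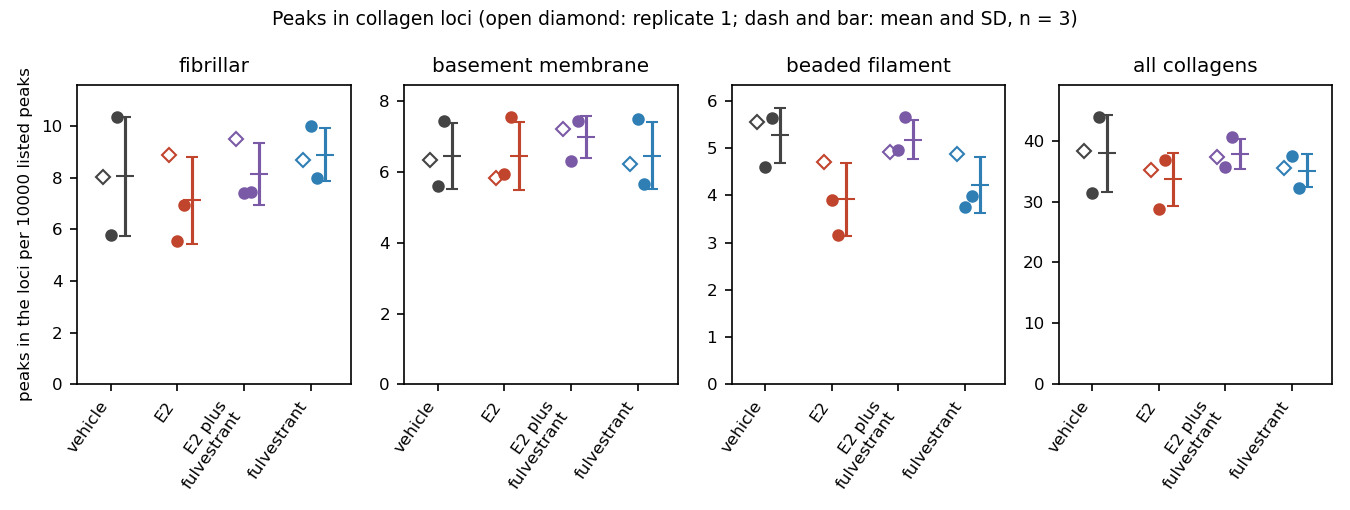
Peaks per 10000 listed peaks are plotted for every library by treatment in fibrillar, basement membrane, type VI and all collagen loci. The class of other collagens has no panel of its own. Open diamonds mark replicate 1, filled circles replicates 2 and 3, and a dash and bar the mean and SD (n = 3). Treatments overlap in every panel except type VI (beaded filament), where the E2 values of 3.15 to 4.69 and the fulvestrant values of 3.75 to 4.88 both lie below the E2 plus fulvestrant values of 4.92 to 5.67. The unscaled peak numbers of these treatments overlap there as well.

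The libraries with replicate number 1, and vehicle replicate 3, listed most of the recurrent collagen regions. They are 5 libraries, as many as the cut of at least 5 asks for. The region counts that follow are therefore partly set by that cut, which was the same for all regions. Of the 66 collagen regions in at least 5 libraries, 52 (78.8%) were listed in all 4 libraries with number 1, beside 63.2% of all such regions, and all 52 were also listed in vehicle replicate 3. By library, 59, 18 and 60 of the 66 were listed in vehicle, 63, 10 and 11 in E2, 61, 8 and 9 in E2 plus fulvestrant, and 61, 25 and 15 in fulvestrant. Among the 52, vehicle replicate 1 had the lowest −log10 p of the 4 number 1 libraries in 38 (73.1%), beside 76.0% of all regions. At promoters, 16 of 44 collagen genes (36.4%) were listed in all 4, beside 43% of all genes.

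A comparison of replicate number 1 with numbers 2 and 3, with treatment as a term, was added after these values were seen. In locus peak numbers it called no collagen gene, beside 0.0541% of all genes, and 24 of 42 differences were positive. The largest belonged to Col3a1 (1.54 ± 0.55 on the log2 scale, limma adjusted p of 0.673), with Col1a2 at 1.20 and Col1a1 at 0.76. With peaks limited to q of 0.05 or less, 1 of 25 was called, Col4a6 (−2.16, limma adjusted p of 0.0410), beside 1.41% of all genes, and with −log10 p of at least 5 it was 1 of 17, Col19a1 (−1.82, limma adjusted p of 0.0260), beside 1.58%. Both loci hold a region listed in all 12 libraries. With scaling to list length, a locus with equal peak numbers in all lists scores lower where the list is longer. Lists cut at q of 0.05 or less held 13863 to 30611 peaks in number 1 and 2551 to 20596 in the others. All 107 genes called at that threshold were lower in number 1, and the part of list length was not tested.

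In the fold enrichment of promoters listed in at least 10 libraries, Col4a1 (−0.59, limma adjusted p of 0.0489) and Col4a2 (−0.70, limma adjusted p of 0.0457) were lower in number 1, beside 20.5% of 1272 genes called. Without centring each library on its median, the values were 0.19 and 0.040 and neither was called, while the median of all genes moved to 0.78. When 1 library was left out, a gene still had to be listed in 10, so Col4a2 was tested in only 2 of these runs. They were those without E2 plus fulvestrant replicate 2 and without fulvestrant replicate 3, and neither gene was called in them. In the other runs Col4a2 could not be called, so they do not show how stable its call was. The Y chromosome peaks moved with replicate number, as did list length in the treatments other than vehicle, and their part in these values was not tested.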

How the data were processed

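ATAC-seq was done on 12 libraries, 3 for each of 4 treatments, grouped by the labels, and the authors deposited 1 peak list for each. Per the methods and the submitters' processing notes, the authors trimmed reads with Trimmomatic 0.39, aligned them to mm10 with Bowtie2, removed duplicates with Picard 2.21.4 and called peaks with MACS2 2.2.71. Each deposited peak has a score (10 times the −log10 p, cut to a whole number), a fold enrichment (the authors' ratio of pileup to local background), the −log10 of its p-value and of its q-value, and a summit offset. No other column of per-sample values was present. The deposited −log10 p started at 2.01 to 2.03, so weak peaks are included, and a missing peak does not show a closed site.

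Here, genes and starts came from GENCODE M21 on GRCm38, promoters were summits within 3000 bp of a start, and loci were gene bodies with 50000 bp upstream. Locus peak numbers, as log2 of peaks plus 0.5 per 10000 listed peaks, were fitted with limma 3.58.1 (trend) in R 4.3.3 over genes with a mean of at least 1 peak, all 12 libraries sharing 1 spread, with Benjamini-Hochberg adjustment over all genes tested. Promoter fold enrichment was fitted likewise on centered log2 values. Depth was solved from the −log10 p and fold enrichment of each list (tolerance 0.002). Python 3.11.15, pandas 2.3.3 and scipy 1.17.1 were used for the rest. The locus fit was tested on simulated peak numbers for E2 against E2 plus fulvestrant, and the promoter fit was not.

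Named genes were a set list of 20 collagens, the 3 members with the smallest p in each contrast, and members with a promoter in all libraries of 1 treatment and none of the other. The members and lists were chosen with earlier results of these data known. Alternatives were scaling, pseudocount, peak threshold, promoter window, locus width, filters, depth as a term, the replicate block and leaving out each library. One region is not reported here. The comparison by replicate number was chosen after seeing the data. Same-numbered libraries correlated at −0.06 to 0.18 in their deviations from treatment means, not over 0.1 in every pair, so the numbers were not taken to pair the libraries.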

Additional observations from a re-analysis of the deposited data

How the results depend on the processing

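The lists limit what can be said. They hold no read counts and differ 1.99-fold in recovered depth, and the library with the highest depth, fulvestrant replicate 3, had the shortest list. A promoter not listed was not shown to be closed. Across 24 settings of the locus and promoter fits together no collagen gene was called by limma in any of the 5 contrasts. At most 2 genes of the whole table were, without E2 replicate 1 (1 gene) and without fulvestrant replicate 1 (2 genes). The main promoter fit held no collagen gene, and its runs with 1 library left out held at most 1. It could call no collagen gene where it held none, so this result rests mainly on the locus fit. With the replicate block 0 genes were called, with a smallest limma adjusted p of 0.0742 over all genes and 0.756 among collagens for E2 against E2 plus fulvestrant. Not every library correlated best with its own number.

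Signs turned at q of 0.05 or less for Col27a1 between E2 and E2 plus fulvestrant (0.054), Col24a1 (0.23) and Col6a6 (0.81) between E2 and vehicle, and Col25a1 (0.58) between E2 plus fulvestrant and vehicle. They also turned for Col6a6 at −log10 p of at least 5 (1.28) and for Col13a1 without scaling (−0.084). A locus without peaks scores higher in a shorter list. Lists cut at q of 0.05 or less held 13863, 17934 and 20596 peaks in vehicle and 30611, 3942 and 2949 in E2. They held 25029, 2671 and 2551 in E2 plus fulvestrant. The turns to positive against vehicle at that threshold were therefore not read as gains. For Col27a1 the E2 list was the longer one at each replicate number. The part of list length and the causes of the turns were not tested.

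The log2 ratio over all collagen loci of E2 to E2 plus fulvestrant moved to 0.12 without scaling, −0.0015 at q of 0.05 or less and −0.0088 over gene bodies. That of E2 to vehicle moved to −0.65 without scaling. That of fulvestrant to vehicle moved to −0.81 without scaling, −0.45 at q of 0.05 or less and −0.54 at −log10 p of at least 5, and that of E2 plus fulvestrant to vehicle to −0.77 without scaling and −0.26 at −log10 p of at least 5. Leaving out 1 library, the 4 ratios ran from −0.24 to −0.07, −0.29 to −0.05, −0.23 to 0.01 and −0.12 to 0.12.

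The mean number of collagen promoters listed fell with the stricter threshold of q of 0.05 or less to 9 in vehicle, 5.33 in E2, 6.33 in E2 plus fulvestrant and 7.67 in fulvestrant, at −log10 p of at least 5 to 7.33, 4.67, 4.67 and 5.33, and within 1000 bp to 16.3 in vehicle and 11.3 in fulvestrant. Promoters listed in all libraries of 1 treatment and none of the other numbered 4 gene and comparison pairs, 0 within 1000 bp, 0 at q of 0.05 or less, 0 at −log10 p of at least 5, and 4 to 10 when 1 library was left out (10 without vehicle replicate 3 or E2 replicate 3, 8 without vehicle replicate 2 or fulvestrant replicate 1, 7 without E2 plus fulvestrant replicate 1). Promoters listed in every library numbered 0 to 1 when 1 library was left out, with 1 without E2 replicate 2 or fulvestrant replicate 3. Collagen regions numbered 326 at q of 0.05 or less, and those in at least 5 libraries 31 at that threshold and 39 with summits within 100 bp. The peak density of basement membrane loci relative to the genome moved from 1.24 to 1.02 with type IV genes alone.

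By replicate number, collagen genes called in the locus fit rose from 0 to 1 at q of 0.05 or less and to 1 at −log10 p of at least 5. Both calls came after scaling to list length, whose part was not tested. In the promoter fit they fell from 2 to 0 without centering, where Col4a1 (0.19) and Col4a2 (0.040) turned sign, and to 0 to 1 when 1 library was left out. In most of the latter runs Col4a2 was not tested.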

Other observations

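Genes that process, secrete, crosslink or bind collagen were looked at by the same measures. Promoters were listed in at least 6 of 12 libraries for 15 of 17 genes of collagen folding and hydroxylation, 6 of 10 of secretion and processing, 4 of 5 of crosslinking and 3 of 7 of collagen receptors, beside 45.5% of all protein-coding genes. Lox, which crosslinks collagen, was listed in 8 libraries with a −log10 p of up to 25.1, and Loxl2, a related enzyme, in 0. Of the receptors, Ddr2 was listed in 10 libraries, Mrc2 and Ddr1 in 8 each, and the integrin gene Itga1 in 1.

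In the locus fit, 38 of these 39 genes were tested and 0 were called by limma in any contrast, with a smallest adjusted p of 0.852. At an unadjusted p under 0.05 there were 4 for E2 against E2 plus fulvestrant (5.67% of all genes tested), 0 for E2 against vehicle (3.05%), 3 for fulvestrant against vehicle (4.3%), 2 for the interaction (3.75%) and 1 for E2 plus fulvestrant against vehicle (4.07%). Between E2 and E2 plus fulvestrant the difference was negative for 26 and positive for 12, with a median of −0.42 beside −0.14 over all genes tested. Without scaling to list length the median over all genes was 0.10, and that of these genes was not recomputed.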
